A study of Homo sapiens with 8 samples.

Results

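The genes described here are interferon regulatory factors (IRFs), taken by their names as 8 rows of the 60558 genes measured, IRF1, IRF2, IRF3, IRF4, IRF5, IRF7, IRF8 and IRF9. The rule names them, and it was written with earlier results of these libraries known. IRFs are transcription factors that share a DNA-binding domain and bind GAAA-rich elements in the promoters of interferon-stimulated genes. IRF3 and IRF7 are switched on by phosphorylation downstream of sensors of foreign nucleic acid and drive type I interferon genes, while IRF9 is the DNA-binding part of the complex ISGF3, which carries the signal of type I interferon to the nucleus. IRF1 and IRF8 are induced by IFNγ, and IRF2 binds the same elements as IRF1 and can oppose it. In intestinal epithelium IRF1 is known for its part in antigen presentation and in the response to IFNγ.

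RNA was sequenced from 8 libraries of 2D human intestinal epithelial cells (hIECs) differentiated out of H9 cells, an established line of human embryonic stem cells. The 4 groups of 2 libraries each were untreated normal hIECs, normal hIECs given PM10 (airborne particulate matter), inflamed hIECs, which were hIECs given IFNγ and TNFα, and inflamed hIECs given the same cytokines and PM10. Per the methods of the study, each cytokine was used at 50 ng/ml for 10 days and PM10 at 100 μg/ml during the final 7 days, while the sample labels give 10 days for every group, the untreated one included. All groups came from this single line, and the labels do not state whether the 2 libraries of a group came from separate cultures, so the p-values measure only the spread between these libraries, which may be technical.

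Each value is an FPKM, a fragment count corrected for transcript length and for how many fragments of the library were mapped, so levels of different genes can be compared within a library. The libraries held 16547 to 18926 genes above 0. Values above 0 began at 0.164 to 0.228 FPKM, depending on the library, and this smallest step was read as a mean depth of 1 over the transcript, so that 1 FPKM stood for a depth of 4.38 to 6.11, and a gene listed at 0 may still have been transcribed below that depth. Of 14 markers of intestinal epithelium, 6 were listed at 0 in all 8 libraries (CDX2, LYZ, MUC2, CHGA, VIL1 and KRT20), and the summed marker level was 660 to 668 FPKM in normal and 357 to 363 FPKM in inflamed hIECs. That sum was nearly all keratin, with KRT8 and KRT18 making up 94.96% to 97.04% of it, while the epithelial cadherin CDH1 was listed at 0 in 7 of the 8 libraries. With cytokines and no PM10 the crypt stem cell marker LGR5 rose by 0.97 on the log2 scale, while SOX9 (-1.63), KRT18 (-0.99) and KRT8 (-0.815) fell. All 11 mesenchymal markers were above 0, with sums between 4424 and 5864 FPKM, so the label of intestinal epithelium was only in part borne out by its markers. Whether these marker levels bear on the IRF values was not tested.

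Differences were tested with limma on log2(FPKM + 1), a scale on which changes of weakly expressed genes are understated, over the 14206 genes that reached 1 FPKM in at least 2 libraries. A gene was called at a Benjamini-Hochberg adjusted p under 0.05 over all genes of a comparison. For each gene the 4 groups shared a single estimate of the spread, so its standard error was the same in every comparison of 2 groups. Of the 8 IRF genes, 6 reached the minimum. IRF8 did so only through the libraries with cytokines, so its test against libraries without cytokines was bound to find a difference, and its values there are given as a description. IRF4 and IRF5, factors best known from lymphocytes, dendritic cells and macrophages, were listed at 0 in all 8 libraries and were not tested.

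In normal hIECs the most abundant of these genes was IRF3, at 32.7 and 32.4 FPKM in the 2 libraries. It was followed by IRF2 at 8.44 and 8.0 FPKM, IRF9 at 6.25 and 5.89, IRF1 at 4.21 and 3.09, IRF7 at 1.31 and 1.37, and IRF8 at 0.819 and 0.817. No neighbours in this order had overlapping libraries, and the order was the same in normal hIECs with PM10. Under cytokines alone IRF1 led, and the libraries of IRF3 and IRF8, the next in order, overlapped. With cytokines and PM10 together IRF1 led again, the libraries of IRF8 and IRF3 overlapped, those of IRF9 and IRF2 overlapped, and IRF7 was the lowest of the genes above 0 in both inflamed groups.

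**Figure D1:**
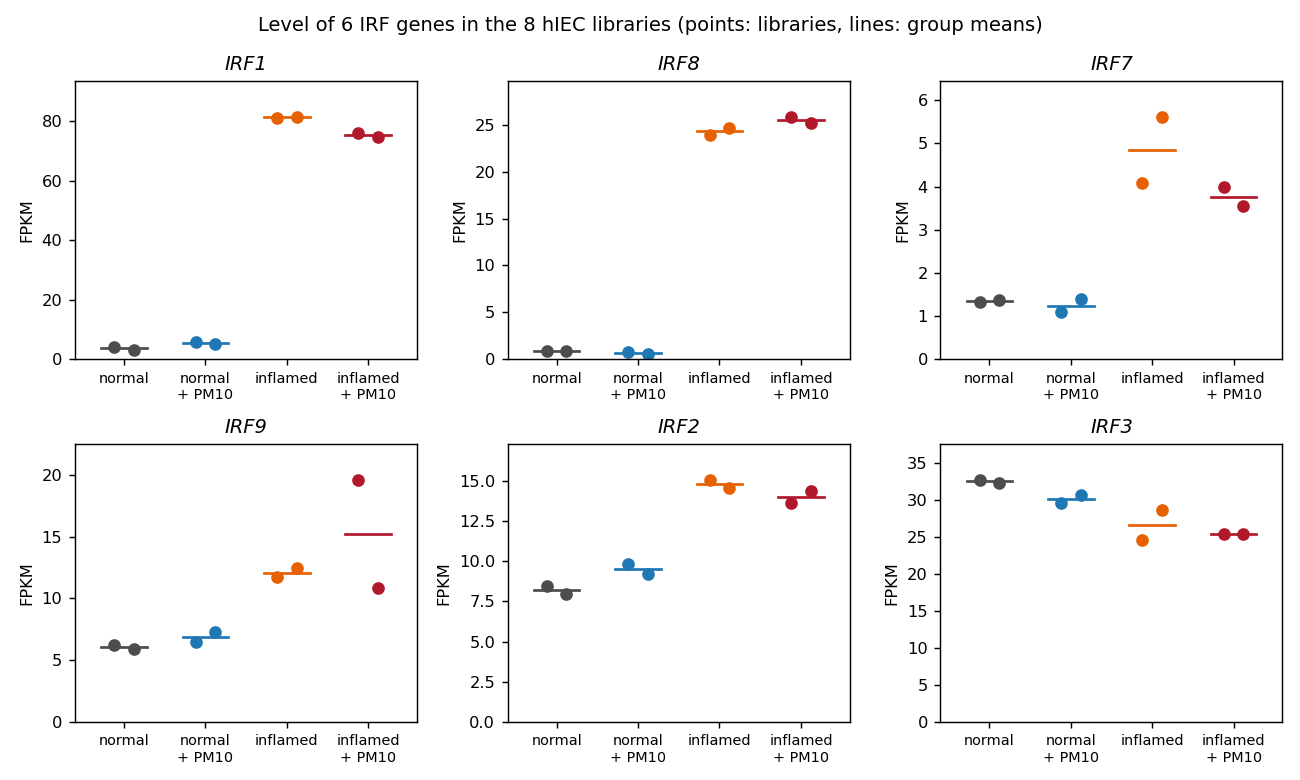
FPKM of 6 IRF genes in each of the 8 libraries, with a panel for each gene, the 4 groups on the horizontal axis, a point for each library and a line at the mean of the 2 libraries. IRF1, IRF8, IRF7, IRF9 and IRF2 lay higher and IRF3 lower in every library with cytokines than in any library without them, and the 2 inflamed libraries with PM10 lay far apart for IRF9, at 19.6 and 10.9 FPKM.

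The comparison of inflamed with normal hIECs asked what IFNγ and TNFα did to the IRF genes without PM10. IRF1, IRF2, IRF7 and IRF9 rose, IRF3 fell, and IRF8 went from under 1 FPKM to about the level of IRF3. All 6 tested members were called, 5 higher and 1 lower, in a comparison in which 56.2% of all genes tested were called, 25.9% higher and 30.3% lower. Without IRF8, 4 of 5 were called higher and 1 lower. The libraries of the groups overlapped for none of the 6, and 77.5% of all genes had no overlap either. As most genes were called here, the count alone says little about the IRF genes. By size, IRF1 and IRF7 were called and at least 1 higher on the log2 scale, as were 4.05% of all genes. IRF8 was also more than 1 higher, but its test was bound to find a difference. In these bulk libraries a change in RNA per cell and a change in the cells present cannot be told apart.

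IRF1 had the highest level of these genes under cytokines. It stood at 4.21 and 3.09 FPKM in normal hIECs and at 81.2 and 81.3 FPKM in inflamed hIECs. The groups were far apart, and the 2 inflamed libraries were nearly equal. The mean rose 22.3-fold, a log2 difference of 4.15 (SE 0.11, limma adjusted p = 1.66e-07), and 27 of the 14206 genes had a larger rise. By level, IRF1 went from rank 8660 and 9638 among the genes tested in the 2 normal libraries to rank 671 and 675 in the inflamed ones. The IRF1 depth was 14.5 to 25.9 in the libraries without cytokines and 352 to 385 in those with them.

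IRF1 (ENSG00000125347) lies on the reverse strand of chromosome 5, GRCh38 position 132440440 to 132508719. Its promoter is shown because the gene had the highest level of the IRF genes in every library with cytokines and because the sequence holds a match to TTCNNNGAA, the palindrome of gamma-activated sites, elements known from genes that respond to IFNγ. The 250 bases before the RefSeq start of IRF1, on chr5:132490774-132491023 of GRCh38.p14, read 5′ to 3′ on the reverse strand, have the match in capitals, 124 bases before the start.
IRF1 promoter: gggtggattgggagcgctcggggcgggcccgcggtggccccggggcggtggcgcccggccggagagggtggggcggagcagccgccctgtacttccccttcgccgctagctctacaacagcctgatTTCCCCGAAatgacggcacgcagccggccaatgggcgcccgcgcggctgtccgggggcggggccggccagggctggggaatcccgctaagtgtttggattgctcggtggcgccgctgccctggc
The same letters were found in 9.38% of all genes with a promoter in the table, counting both strands and 250 bases before to 50 after each start, so the match is a description and not a binding site. GC made up 74.4% of these 250 bases, which lie inside the IRF1 gene span given here. The bases before the annotated start of that span were not searched. The promoter held no match to the core of the interferon-stimulated response element that IRFs bind, searched on both strands as GAAA, any 2 bases and GAAA again.

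Part of the IRF1 annotation is shared with another gene. IRF1-AS1, an antisense RNA, covers 22.9% of the exon bases of IRF1, and the libraries carry no strand, so reads from the pair cannot be told apart there. IRF1-AS1 was given 0.753 to 1.37 FPKM in the 4 libraries without cytokines and 5.10 to 5.68 FPKM in the 4 with them, well below IRF1 in each. IRF3 shares 19.4% of its exon bases with BCL2L12 on the opposite strand, and IRF9 shares 23.9% with a gene on its own strand, described with IRF9 here. IRF2, IRF7 and IRF8 share no exon bases with another annotated gene.

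IRF8, a factor known for the development of myeloid and dendritic cells and inducible by IFNγ in other cells, was near the floor without cytokines. It stood at 0.819 and 0.817 FPKM in normal hIECs, at a depth of 5.01 and 3.82, and at 24.0 and 24.7 FPKM in inflamed hIECs, at a depth of 105 and 117. The mean was 29.7-fold higher with cytokines, and the log2 difference was 3.80 (SE 0.07), exceeded by 38 genes. As IRF8 was tested only because of these libraries, no adjusted p is given for it here.

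IRF8 is otherwise best known from blood cells, so markers of those cells were read beside it. Of 15 haematopoietic markers, 9 were listed at 0 in all 8 libraries, among them CD3E, MS4A1, CD14, ITGAM, ITGAX and CSF1R, which mark T cells, B cells and myeloid cells. The marker PTPRC, which encodes the pan-leukocyte antigen CD45, averaged 0.434 FPKM in normal hIECs and was listed at 0 in all libraries with cytokines. The summed level of the list was 12.4 FPKM in both normal libraries and 10.7 and 12.5 FPKM in the inflamed ones, but its members moved in opposite directions. CORO1A, an actin regulator of leukocytes that is also found in other cells, averaged 10.4 FPKM in normal and 6.57 FPKM in inflamed hIECs and was called lower. LCP1, encoding an actin-bundling protein of leukocytes, averaged 0.499 and 3.23 FPKM, and CD34 averaged 0.262 and 1.42 FPKM, and both reached the minimum only through the libraries with cytokines. The sum was 9.11 and 9.18 FPKM in normal and 14.6 and 15.5 FPKM in inflamed hIECs with PM10. The part of these markers in the IRF8 level was not tested. IRF4, and the DNA-binding partners SPI1 and BATF that IRF4 and IRF8 use in blood cells, were listed at 0 in all 8 libraries. BATF3, another partner of IRF8, was present and averaged 3.46 FPKM in normal and 11.6 FPKM in inflamed hIECs.

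IRF8 (ENSG00000140968) lies on the forward strand of chromosome 16, position 85899116 to 85922606. Neither of the 2 RefSeq promoters of IRF8 held TTCNNNGAA or the response element core, which says only that these letters are not in those windows. The 250 bases before each RefSeq start, 85902580 to 85902829 and 85902765 to 85903014, lie inside the gene span given here. The bases before the annotated start of that span were not searched. The promoters of IRF4 and IRF5 likewise held neither motif.

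IRF2 (ENSG00000168310, chromosome 4, reverse strand, 184385702 to 184474558) was 8.44 and 8.0 FPKM in normal hIECs and 15.1 and 14.6 FPKM in inflamed hIECs. The libraries of the 2 groups did not overlap. The mean rose 1.81-fold, with a log2 difference of 0.78 (SE 0.06, limma adjusted p = 3.74e-05).

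IRF1 and IRF2 compete for the same elements, and their levels were compared within each library. The ratio of IRF1 to IRF2 FPKM was 0.498 and 0.387 in normal hIECs and 0.568 and 0.534 in those with PM10. The inflamed hIECs had a ratio of 5.38 and 5.57, and those with PM10 had 5.57 and 5.18. IRF2 was thus the more abundant transcript in every library without cytokines and IRF1 in every library with them. The mean log2 ratio differed by 3.46 between the 4 libraries with and the 4 without cytokines (exact two-sided permutation test, p = 0.0286, the smallest p this design allows). The test took libraries with and without PM10 together. As IRF1 already differed far more than IRF2 between these libraries, this p was fixed by the levels given before and is no further support.

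IRF7 (ENSG00000185507, chromosome 11, reverse strand, 612553 to 615983), the factor that amplifies type I interferon production, stood at 1.31 and 1.37 FPKM in normal hIECs. In inflamed hIECs it was 4.08 and 5.61 FPKM. The groups did not overlap, although the inflamed libraries differed from each other more than those of IRF1, IRF2 or IRF8. The mean rose 3.61-fold, with a log2 difference of 1.31 (SE 0.14, limma adjusted p = 1.50e-04). Depth over IRF7 was 5.0 to 26.6, the lowest of the called IRF genes apart from IRF8.

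IRF3 (ENSG00000126456, chromosome 19, reverse strand, 49659569 to 49665875), which is activated after translation rather than by induction, was the member that fell. It was 32.7 and 32.4 FPKM in normal hIECs and 24.6 and 28.6 FPKM in inflamed hIECs, without overlap. The mean was 0.818 of that in normal hIECs, and the log2 difference was -0.28 (SE 0.07, limma adjusted p = 0.0115). Rescaled to the same FPKM sum in each library, IRF3 differed by -0.19 (adjusted p = 0.118) and was not called, although relative to the median of all genes it was -0.26 before and -0.25 after rescaling. Without the first inflamed library it differed by -0.18 (adjusted p = 0.0598).

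IRF9 (ENSG00000213928, chromosome 14, forward strand, 24161234 to 24168043), the DNA-binding subunit of ISGF3, was 6.25 and 5.89 FPKM in normal hIECs and 11.7 and 12.4 FPKM in inflamed hIECs. The groups did not overlap. The mean rose 1.99-fold, with a log2 difference of 0.89 (SE 0.22, limma adjusted p = 0.0106). Its standard error was the largest of the 6 members, and the call was lost without the second normal library (0.85, adjusted p = 0.0585) or without the second inflamed library (0.85, adjusted p = 0.0520).

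IRF9 is annotated together with ENSG00000259529, a gene on the same strand with which it shares 23.9% of its exon bases. That gene was listed at 9.20 and 8.31 FPKM in normal hIECs, 10.7 and 10.6 with PM10, 17.1 and 18.1 in inflamed hIECs and 12.6 and 15.2 in inflamed hIECs with PM10. In the 2 inflamed libraries with PM10 the pair stood in opposite order, with IRF9 at 19.6 and the other gene at 12.6 FPKM in the first, and IRF9 at 10.9 and the other gene at 15.2 FPKM in the second. How the authors' counting divided shared reads is uncertain, so the sum of the pair was also followed. The sum was 15.5 and 14.2 FPKM in normal, 17.2 and 17.9 in normal with PM10, 28.8 and 30.6 in inflamed, and 32.2 and 26.0 in inflamed hIECs with PM10.

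**Figure D2:**
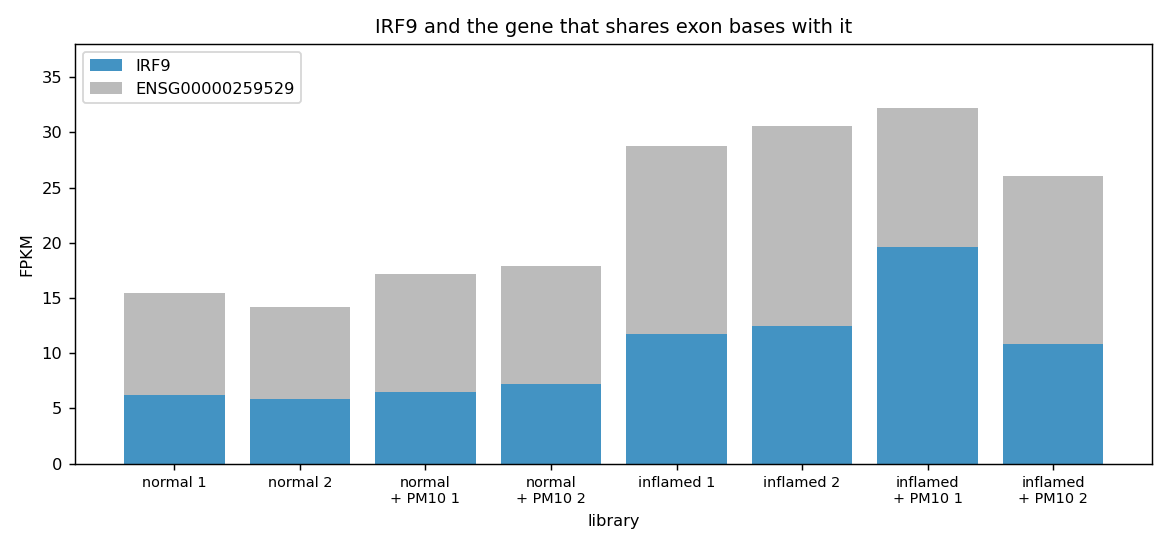
FPKM of IRF9 (blue) and of ENSG00000259529, which overlaps it on the same strand (grey), stacked for each of the 8 libraries. The sum was 14.2 to 17.9 FPKM in the 4 libraries without cytokines and 26.0 to 32.2 FPKM in the 4 with them, and the first inflamed library with PM10 held the largest IRF9 part.

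The RefSeq promoter of IRF9 also held TTCNNNGAA, 63 bases before the start. A window of 29 bases on chr14:24161192-24161220 of GRCh38.p14, forward strand, is shown beside that of IRF1 so that the 2 matches (capitals) can be read together, a choice made after the values were seen.
IRF1 window: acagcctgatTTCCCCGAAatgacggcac
IRF9 window: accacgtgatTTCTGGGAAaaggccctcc
Of the 5 members with a promoter in the table (IRF1, IRF4, IRF5, IRF8 and IRF9), 2 held the motif. No promoter was found there for IRF2, IRF3 and IRF7.

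The make-up of the IRF pool followed from these levels. IRF3 held 60.9% and 62.8% of the summed FPKM of the 6 genes in the normal libraries and 15.3% and 17.1% in the inflamed ones. IRF1 went the other way, from 7.82% and 6.0% to 50.5% and 48.6%. The share of IRF8 was 1.52% and 1.59% in normal hIECs and 14.9% and 14.8% in inflamed hIECs. IRF7 kept a small share throughout, between 2.03% and 3.35% over the 8 libraries. The sum itself was 51.5 to 53.8 FPKM in normal hIECs and 160.6 to 167.2 FPKM in inflamed hIECs, while the mean of IRF3 itself was 32.6 and 26.6 FPKM.

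**Figure D3:**
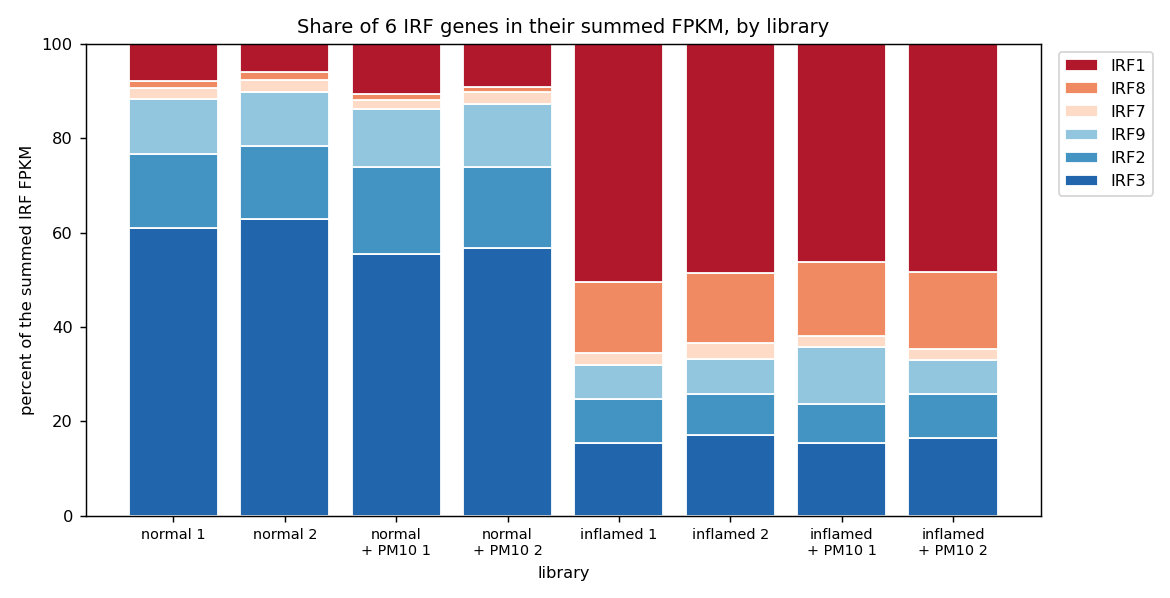
Share of each of 6 IRF genes in their summed FPKM, in percent, as stacked bars for the 8 libraries. IRF3 was the largest part in all libraries without cytokines (55.5% to 62.8%) and IRF1 in all libraries with them (46.2% to 50.5%).

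The comparison of normal hIECs with and without PM10 asked whether PM10 alone moved the IRF genes. IRF1 was the only member called, and its call was narrow. It was 4.21 and 3.09 FPKM without and 5.61 and 4.94 FPKM with PM10, a 1.45-fold rise of the mean and a log2 difference of 0.44 (SE 0.11, limma adjusted p = 0.0488). In this comparison 9.23% of all genes were called, 5.51% higher, so 1 call among 6 members is not a result about the family. The call was lost in 13 of 17 alternative settings, among which the difference ranged from 0.27 to 0.61 and the adjusted p from 0.00715 to 0.211. With any 1 library left out other than the first normal one IRF1 was not called, and without the second normal library the difference was 0.27 (adjusted p = 0.0975).

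IRF2 was 8.44 and 8.0 FPKM without and 9.87 and 9.24 FPKM with PM10, and its log2 difference of 0.20 did not pass (95% interval 0.05 to 0.34, limma adjusted p = 0.0865). IRF8 was 0.819 and 0.817 FPKM without and 0.707 and 0.548 FPKM with PM10, a difference of -0.16 (interval -0.32 to -0.001, adjusted p = 0.166) at a depth of only 2.73 to 5.01. IRF3 (32.7 and 32.4 against 29.6 and 30.7 FPKM) differed by -0.11, with an interval from -0.27 to 0.06. These intervals leave room for small changes. The interval of IRF7 ran from -0.39 to 0.25 and that of IRF9 from -0.36 to 0.66. The libraries with and without PM10 did not overlap for 5 of the 6 members, 3 higher and 2 lower, while 56.5% of all genes did not overlap, 37.3% higher and 19.2% lower.

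The comparison of inflamed hIECs with and without PM10 asked the same question under cytokines. No IRF gene was called by limma, none had an unadjusted p under 0.05 (0 of 6), and 15.2% of all genes were called. IRF1 was 81.2 and 81.3 FPKM without and 76.0 and 74.5 FPKM with PM10, a log2 difference of -0.11 (interval -0.36 to 0.15). IRF8 was 24.0 and 24.7 FPKM without and 25.8 and 25.2 FPKM with PM10, a difference of 0.07 (interval -0.09 to 0.23). IRF2 was 15.1 and 14.6 against 13.7 and 14.4 FPKM, a difference of -0.08 (interval -0.22 to 0.07). Over these 3 genes the intervals reached no further than -0.36 and 0.23.

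The other 3 were less well fixed. IRF7 was 4.08 and 5.61 FPKM without and 3.98 and 3.54 FPKM with PM10, a difference of -0.28 (interval -0.60 to 0.03). IRF3 was 24.6 and 28.6 against 25.4 and 25.5 FPKM, where the 2 libraries with PM10 lay between those without, and the interval was -0.23 to 0.11. IRF9 was 11.7 and 12.4 FPKM without and 19.6 and 10.9 FPKM with PM10, a difference of 0.26 with an interval from -0.25 to 0.77. The direction for IRF9 rested on 1 library, since without the first inflamed library with PM10 the difference was -0.14, without the second it was 0.66 and called (adjusted p = 0.0179), and for the sum with the overlapping gene it was -0.03. The libraries with and without PM10 did not overlap for 4 of the 6 members, 1 higher and 3 lower, while 65.1% of all genes did not overlap, 31.9% higher and 33.2% lower.

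Whether PM10 acted differently with and without cytokines was tested as an interaction, the PM10 difference in inflamed hIECs less that in normal hIECs. No IRF gene was called by limma, 3 (IRF1, IRF2 and IRF8) had an unadjusted p under 0.05, and 6.6% of all genes were called. The interaction of IRF1 was -0.55 (interval -0.91 to -0.19, adjusted p = 0.0829), that of IRF2 was -0.27 (interval -0.47 to -0.07, adjusted p = 0.112) and that of IRF8 was 0.23 (interval 0.003 to 0.46, adjusted p = 0.207). IRF1 and IRF2 were higher with PM10 in both libraries without cytokines and lower in both with them, and IRF8 was the reverse. Such a crossing with no overlap in either comparison was seen in 11.6% of all genes. IRF1 passed in the interaction without the first normal library, at -0.72 (adjusted p = 0.0127).

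**Figure D4:**
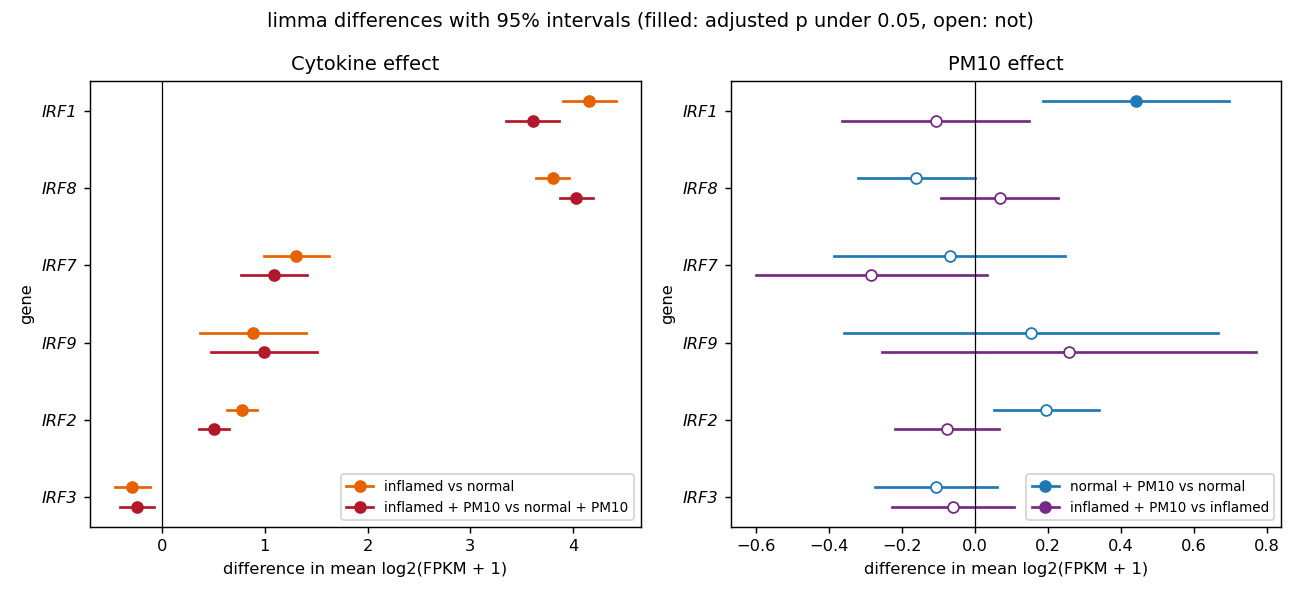
Differences in mean log2(FPKM + 1) from limma for 6 IRF genes, with 95% intervals, for the cytokines (left) and for PM10 (right), each with both settings. Filled points are called at an adjusted p under 0.05. Points lie from -0.28 to 4.15 on the left, where all are filled, and from -0.28 to 0.44 on the right, where IRF1 in normal hIECs is the only filled point and both axes differ in scale.

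The cytokine comparison was repeated among the cells that received PM10, in libraries that share none with the comparison of inflamed and normal hIECs. All 6 members were called again, 5 higher and 1 lower, beside 65.4% of all genes, 25.8% higher and 39.6% lower. Without IRF8 the count was 4 of 5 higher and 1 lower. None of the 6 had overlapping libraries, beside 84.9% of all genes without overlap. IRF1 was 5.61 and 4.94 FPKM in normal hIECs with PM10 and 76.0 and 74.5 FPKM in inflamed hIECs with PM10, a 14.3-fold rise (log2 3.61, SE 0.11, limma adjusted p = 2.56e-07). IRF8 was 0.707 and 0.548 FPKM and 25.8 and 25.2 FPKM, a log2 difference of 4.03 (SE 0.07). IRF7 rose by 1.09 (SE 0.14), IRF9 by 0.99 (SE 0.22) and IRF2 by 0.51 (SE 0.06) on the log2 scale. IRF3 differed by -0.24 (SE 0.07, adjusted p = 0.0205) and was not called after rescaling to the same FPKM sum (-0.14, adjusted p = 0.220, and relative to the median of all genes -0.13 before and -0.11 after) or when any 1 of the 4 libraries compared was left out (-0.26 to -0.21, adjusted p of 0.0520 to 0.0994).

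Against untreated normal hIECs, inflamed hIECs with PM10 also had 5 members called higher and 1 lower, beside 66.3% of all genes, 30.4% higher and 35.9% lower, and without IRF8 the count was 4 of 5 higher and 1 lower. This comparison shares its normal libraries with that of inflamed hIECs, so the values are only set side by side. The log2 difference was 4.05 for IRF1 (4.15 without PM10), 3.87 for IRF8 (3.80), 1.14 for IRF9 (0.89), 1.02 for IRF7 (1.31), 0.70 for IRF2 (0.78) and -0.34 for IRF3 (-0.28). The median of all genes moved by 0.14 in this comparison when libraries were rescaled to the same sum, and relative to that median IRF3 differed by -0.30 before and -0.30 after rescaling, although its call was lost (adjusted p = 0.0836).

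The genes that act with IRFs were read from lists written by hand. Their counts stand beside 56.2% of all genes called for the cytokines without PM10, 25.9% higher and 30.3% lower, beside 9.23% for PM10 in normal hIECs and beside 15.2% for PM10 in inflamed hIECs. Markers of other cells also moved with PM10 in inflamed hIECs, where 7 of 11 mesenchymal markers were called, 1 higher and 6 lower. The haematopoietic marker LCP1 (0.76, SE 0.09) was called higher. CD68 was higher by 0.84 (SE 0.18) but reached the minimum only through the inflamed libraries with PM10, at 1.11 and 1.83 FPKM. Its difference is thus only a description. The part of these markers in the list counts was not tested. Interferon ligands come first in the pathway. Of 21 type I, type II and type III interferon genes, 20 were listed at 0 in all 8 libraries, IFNB1 and IFNG among them, and IFNE, an epithelial type I interferon, was listed at 0.872 and 0.635 FPKM in inflamed hIECs, at 0 and 0.297 in inflamed hIECs with PM10 and at 0 in the other 4 libraries. None reached the minimum. The 20 genes at 0 were not detectable at this depth.

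Receptors, JAK kinases, STATs and their inhibitors made up 13 genes, all tested. Without PM10, cytokines raised 7 and lowered 3, with a median log2 difference of 0.58 beside -0.03 over all genes, while 25.9% of all genes were called higher and 30.3% lower. The feedback inhibitors USP18 and SOCS1 rose by 2.01 (SE 0.07) and 1.47 (SE 0.09) on the log2 scale, while SOCS3, an inhibitor that acts mainly on IL-6 type signals, decreased by 0.84 (SE 0.07). IFNAR1, a chain of the type I interferon receptor, rose by 0.72 (SE 0.06). In normal hIECs PM10 raised 4 of the 13, among them STAT2 (0.34, SE 0.08, limma adjusted p = 0.0468), STAT3 (0.23, SE 0.06, adjusted p = 0.0487) and TYK2 (0.29, SE 0.07, adjusted p = 0.0397), named after their values were seen, beside 9.23% of all genes called, 5.51% higher. These calls were narrow, and none of the 13 was called with no filter on low values, with TPM scaling, with a fit of just the 2 groups, with no trend, or without the second normal library or either normal library with PM10. In inflamed hIECs PM10 raised IFNAR1 (0.25, SE 0.06, limma adjusted p = 0.0412) and lowered SOCS3 (-0.44, SE 0.07). These were 2 of the 13, beside 15.2% of all genes called. Neither was called without the second inflamed library or without the first inflamed library with PM10.

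Of 22 names of nucleic acid sensors, adaptors and kinases upstream of IRF3 and IRF7, 20 were in the files and 17 were tested. Cytokines raised 13 and lowered 1, with a median of 0.66, beside 25.9% of all genes called higher and 30.3% lower. The RNA sensors IFIH1 (MDA5) and DDX58 (RIG-I) rose by 2.29 (SE 0.07) and 1.81 (SE 0.06), OPTN, an adaptor of the kinase TBK1, by 1.73 (SE 0.06), and IKBKE, a kinase of IRF3 and IRF7, by 1.39 (SE 0.09). TLR3, a sensor of double-stranded RNA, rose by 1.22 (SE 0.10) but reached the minimum only through the libraries with cytokines. In inflamed hIECs PM10 raised 3 of the 17, IRAK1 (0.34, SE 0.07), OPTN (0.24, SE 0.06) and DDX58 (0.23, SE 0.06), beside 15.2% of all genes called, and 0 of the 17 were called with TPM scaling or with any 1 of these 4 libraries left out.

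Of 14 proteins that bind or modify IRFs, 11 were tested and cytokines raised 6 and lowered 3, with a median of 0.23, beside 25.9% of all genes called higher and 30.3% lower. BATF2, a leucine zipper partner of IRF1, was listed at 0.294 FPKM in 1 of the 4 libraries without cytokines and at 0 in the other 3, and stood at 14.6 to 16.8 FPKM in the 4 with them. It reached the minimum only through those 4 libraries. BATF3, a partner of IRF8, rose by 1.5 (SE 0.16), the ubiquitin ligase TRIM21 by 1.26 (SE 0.05), PML by 1.14 (SE 0.07) and IRF2BPL, a relative of the IRF2-binding proteins, by 0.53 (SE 0.07). In inflamed hIECs PM10 moved none of the 11 by the test.

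Genes known as targets of IRF1 were 18 in the files, of which 16 were tested and all 16 rose with cytokines, with a median of 2.75. Of these, 5 (CASP1, CTSS, IDO1, IL15 and NLRC5) reached the minimum only through the libraries with cytokines, and the other 11 were all called higher as well, with a median of 2.34. TAP1, a transporter of peptides for antigen presentation, rose by 4.63 (SE 0.09) and PSMB9, an immunoproteasome subunit, by 4.46 (SE 0.11). IDO1, which breaks down tryptophan, averaged 0.092 FPKM in normal and 126.9 FPKM in inflamed hIECs. When PM10 was added to inflamed hIECs, 2 of the 16 rose and 3 fell, among them CD274 (PD-L1; 0.43, SE 0.07), CTSS (0.35, SE 0.07) and the adhesion molecule VCAM1 (-0.78, SE 0.09), beside 15.2% of all genes called. Over the alternatives 1 to 6 of the 16 were called, the lowest count being that without either inflamed library or without the second inflamed library with PM10.

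Of 19 genes known as targets of ISGF3 in the files, 17 were tested and all 17 rose with cytokines, with a median of 2.35. For 7 of them (HERC5, HERC6, MX1, OAS2, OAS3, RSAD2 and XAF1) the minimum was reached only through the libraries with cytokines, and the other 10 were all called higher, with a median of 2.30. IFI27 rose by 6.84 (SE 0.10) and IFIT3, an antiviral RNA-binding protein, by 3.32 (SE 0.06). With PM10 in inflamed hIECs, 1 rose, IFIT3 (0.33, SE 0.06), and 3 fell, IFI6 (-0.41, SE 0.06) and IFIT1 (-0.36, SE 0.10) among them, again beside 15.2% of all genes. Over the alternatives 1 to 4 of the 17 were called, the lowest count being that without the second inflamed library or either inflamed library with PM10. The lists were written with earlier results of these libraries known, so their direction is not independent evidence.

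**Figure D5:**
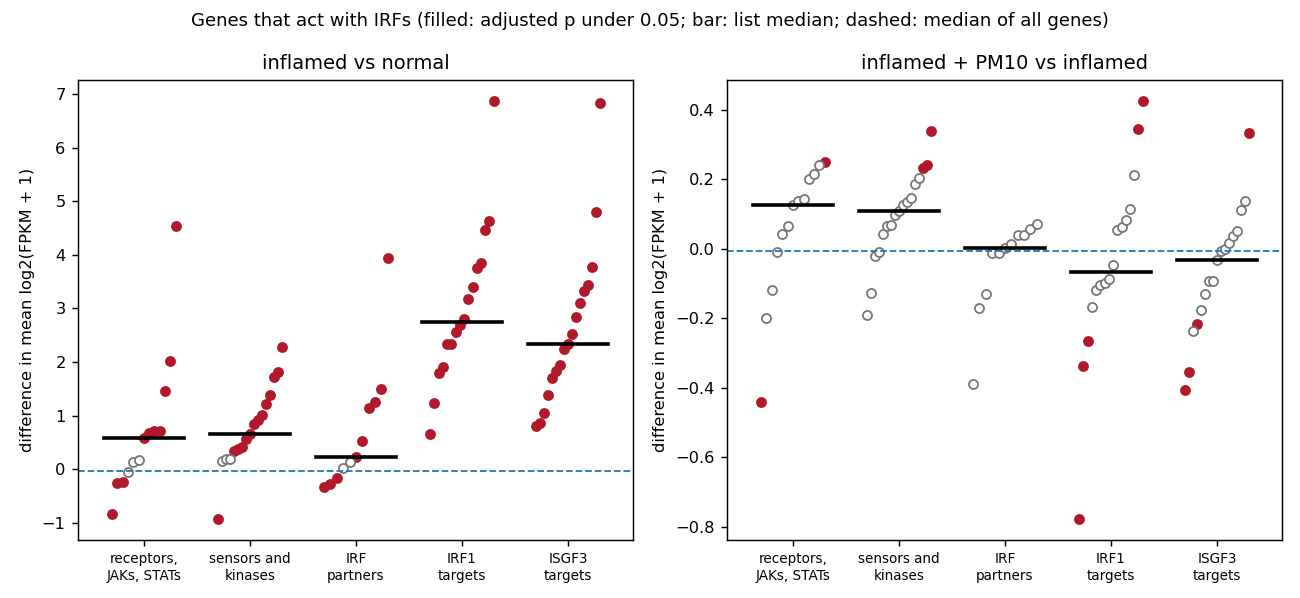
Differences in mean log2(FPKM + 1) of the tested genes of 5 lists, in rising order within each list, for inflamed against normal hIECs (left) and for PM10 in inflamed hIECs (right), with different vertical axes. Black bars are list medians and the dashed line is the median of all genes. On the left the medians of the IRF1 and ISGF3 targets are 2.75 and 2.35, or 2.34 and 2.30 over the genes that reach the minimum without the libraries with cytokines, and on the right no list median lies further than 0.13 from 0.

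The element that IRFs bind was searched for in the promoters of these lists. The core, GAAA with any 2 bases before the next GAAA, was present in 8 of 9 IRF1 target genes and in 12 of 16 ISGF3 target genes with a promoter in the table, beside 4.38% of all genes. The presence of the element is part of how such genes came to be known as targets, so it is shown only to give the letters that IRF proteins read. Windows of 30 bases around 3 matches in named targets are read 5′ to 3′ on the forward strand for TAP1 and on the reverse strand for IFI27 and IFIT3, have the match in capitals and come from GRCh38.p14.
TAP1, chr6:32853813-32853842, 128 bases before the start: ccatttagggGAAAGCGAAAtcgaaagcgg
IFI27, chr14:94110618-94110647, 108 bases before its nearest start: cattttccagGAAACCGAAActgcagacat
IFIT3, chr10:89327865-89327894, 122 bases before the start: gaggaaactgGAAAGTGAAActaatttaaa

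The genes whose pattern was most like that of the members past 1 on the log2 scale were found by the Euclidean distance between log2(FPKM + 1) values over the 8 libraries, each less the mean of the 2 normal libraries. Nearest to IRF1 were GBP1P1 (distance 0.396), GBP4 (0.686) and APOL3 (0.719), which averaged 18.2, 17.3 and 15.3 FPKM in inflamed hIECs. In normal hIECs they averaged 0.083, 0 and 0 FPKM, where IRF1 averaged 3.65 FPKM. GBP1P1 is a pseudogene, and its reads may in part belong to its parent gene. Nearest to IRF8 were OAS2 (0.283), TNFSF13B (0.347) and BATF2 (0.365), which averaged 12.8, 13.5 and 16.4 FPKM in inflamed hIECs and 0, 0 and 0.147 FPKM in normal hIECs. Nearest to IRF7 were FMNL1 (0.302), PHF11 (0.319) and GP1BA (0.346), at 1.72, 10.5 and 1.29 FPKM in inflamed hIECs. Their means in normal hIECs were 0.230, 3.66 and 0 FPKM, and that of IRF7 was 1.34 FPKM. These distances are descriptions over libraries that fall into few groups, and carry no test.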

How the data were processed

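RNA-seq of 8 libraries in 4 groups of 2 was used. The RNA had an integrity number above 7.5, and the libraries were poly-A selected without strand information and sequenced as 2 × 100 bases. Per the study's methods, adapters were removed with Cutadapt 3.7, reads were trimmed with Sickle 1.33 at a Phred score of 20, those under 50 bases were dropped, and HISAT2 2.2.1 (GRCh38) and StringTie 2.2.0 followed. The authors deposited FPKM, one value per gene and library, and no further scaling was stated. The annotation release is not given in the sources used here. Of the gene identifiers, 99.5% were in GENCODE 44, which gave positions and overlaps. Promoters came from RefSeq (GRCh38.p14), in which 5 of the 8 members matched.

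FPKM are not counts, so log2(FPKM + 1) of all 8 libraries went into a fit by limma 3.58.1 in R 4.3.3 (variance trend on), limited to genes reaching 1 FPKM in 2 or more libraries. For each of 6 comparisons the two-sided p-values received a Benjamini-Hochberg adjustment. The script was tested on simulated data. No 0 was replaced, and all columns were mapped to samples (0 were not). The ratio of IRF1 to IRF2 used an exact permutation test (scipy 1.17.1). No replicate pair held identical values (0 genes above 0 in both were equal), and no pairing of libraries by replicate number was seen. The labels name no batch.

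The genes named are all 8 members, from each list up to 5 called in inflamed against normal hIECs and up to 3 each called with PM10 in inflamed hIECs or in the interaction, by size, and for members past 1 on the log2 scale the 3 nearest in pattern. The members and lists were chosen with earlier results of these data known. Values of other genes of the family are not given here. Some genes that the rule would name are not reported here. Alternatives covered the pseudocount, the filter, scaling, the groups in the fit, the trend, a replicate block and each library left out. Tables and plots used Python 3.11.15, pandas 2.3.3 and matplotlib 3.10.9.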

Additional observations from a re-analysis of the deposited data

Results flagged for a closer look

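No IRF gene passed the interaction test, but 7 receptor, signalling and target genes of the lists that act with them did, 6 of which are named by size. Most of these calls were lost with TPM scaling. Most were also lost without the first normal library with PM10, without the second inflamed library or without the first inflamed library with PM10. Each value is the log2 difference with cytokines less that without, from limma. TYK2, a JAK kinase of the type I interferon receptor, had -0.49 (adjusted p = 0.0287). Among the IRF1 targets, VCAM1 had -0.67 (adjusted p = 0.0268), WARS, a tryptophan tRNA synthetase, had -0.56 (adjusted p = 0.00426) and CD274 had 0.45 (adjusted p = 0.0374). Among the ISGF3 targets, IFIT1 had -0.70 (adjusted p = 0.0296) and IFI6 had -0.68 (adjusted p = 0.00619).

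The count in each list was 1 of 13 receptor and signalling genes, 4 of 16 IRF1 targets and 2 of 17 ISGF3 targets, with 0 of 17 sensors, adaptors and kinases and 0 of 11 partners of IRFs, beside 6.6% of all genes. With TPM scaling the count was 0 of the 13 receptor and signalling genes, 1 of the 16 IRF1 targets and 1 of the 17 ISGF3 targets. Among markers of other cells, 7 of 11 mesenchymal markers were called, COL3A1 (-0.60), DCN (-0.59) and ACTA2 (0.40) among them. Of 4 haematopoietic markers, CD68 (1.24, SE 0.25) and LCP1 (0.71, SE 0.13) were called as well. CD68 reached the minimum only through the inflamed libraries with PM10, and LCP1 only through the libraries with cytokines, so these values are descriptions. The part of these markers in these differences was not tested. Of the 11 mesenchymal markers, 1 was called with TPM scaling. Most of the mesenchymal calls, and those of CD68 and LCP1, were also lost when either inflamed library was left out. WARS rose by 0.63 (SE 0.04) with PM10 in normal hIECs, and IFI6 rose by 0.27 there (SE 0.06, adjusted p = 0.0332) and decreased by 0.41 in inflamed hIECs (SE 0.06, adjusted p = 0.00574).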

How the results depend on the processing

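Of 309 alternative values of the members in the 3 comparisons with cytokines, 299 kept their direction and side of the threshold, 10 kept the direction and were no longer called, and 0 reversed. The number of IRF genes called for PM10 in normal hIECs, 1 as reported, was 0 with a pseudocount of 0.1, with no filter on low values, with quantile normalization, with TPM scaling, with a fit of just those 2 groups and with no trend, and 0 to 1 when each library was left out in turn. For PM10 in inflamed hIECs the count was 0 to 1 when libraries were left out (1 without the second inflamed library with PM10, where IRF9 was called), and for the interaction it was 0 to 1 (1 without the first normal library, where IRF1 was called). The difference in the log2 ratio of IRF1 to IRF2 was 3.35 to 3.53 with each library left out, where 4 against 3 libraries allow no p below 0.0571.

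Directions that reversed were all of values that were not called. For PM10 in normal hIECs, IRF7 was 0.029 without the first normal library with PM10 and ranged from -0.17 to 0.029 over libraries left out. For PM10 in inflamed hIECs, IRF3 was 0.045 without the second inflamed library (range -0.17 to 0.045), and IRF9 was -0.14 without the first inflamed library with PM10 (range -0.14 to 0.66) and -0.0335 when summed with its overlapping gene. In the interaction, IRF3 was -0.059 without the first inflamed library (range -0.059 to 0.15), and IRF9 was -0.29 without the first inflamed library with PM10 (range -0.29 to 0.50) and -0.26 when summed. The sum with the overlapping gene was chosen after seeing the data.

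With the replicate block the number of IRF genes called stayed at 1, 6, 6, 0, 6 and 0 in the 6 comparisons. The deviations of same-numbered libraries correlated at -0.0015 to 0.0793, so no pairing by number was seen. Such weak correlations do not show that the libraries were unpaired. Over the alternatives the number of all genes called ranged from 23 to 2627 for PM10 in normal hIECs (1311 as reported), 675 to 2992 for PM10 in inflamed hIECs (2165) and 263 to 1266 for the interaction (937), and from 6282 to 10800 in the 3 comparisons with cytokines. With 2 libraries a group, and IRF8 and IRF7 at depths as low as 2.73 and 5.0 without cytokines, small PM10 differences of these genes were not detectable.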
